A study of Mus musculus with 4 samples.

Results

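Peaks of topoisomerase IIβ (TOP2B) that were called with the Santa Cruz antibody alone and that lay far from any protein-coding gene are described here. They were chosen by position from the deposited peak lists: a peak of the Santa Cruz list that shared no base with a Novus peak, with its centre outside every protein-coding gene and over 50 kb from the nearest protein-coding transcription start in the mouse build mm9. The rule was met by 3177 of the 16751 Santa Cruz-only peaks (19.0%, exact 95% interval 18.4 to 19.6), out of 17754 peaks in the Santa Cruz list and 21318 in both lists. They are called far Santa Cruz-only peaks, and members in the plots. The bases of mm9 that satisfied the same distance rule added up to 1001 Mb, or 39.2% of the sequenced chromosomes, and are called the far sequence.

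TOP2B binding was measured by ChIPseq in thymocytes freshly taken from wild-type C57BL/6 mice of 4 to 6 weeks. The labels name no transgene and no treatment, and the antibody was what differed between the libraries. The series holds 4 libraries, of which 2 were made with TOP2B antibodies from different suppliers, sc13059 from Santa Cruz and NB100-40842 from Novus, with 1 library each. The libraries made with a TOP2A antibody and with rabbit IgG were not analysed here. The lists give the position of each peak and no height or read number, so the depth behind a single peak is unknown. With 1 library per antibody there was no replicate error, and every interval given is a 95% interval that covers counting error only. Neighbouring peaks are not independent of each other, which these intervals do not include. Since no RNA was measured, the identity of the cells was not checked against marker genes.

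TOP2B passes a DNA duplex through a transient break in another duplex and so removes supercoils and tangles that arise during transcription and the folding of chromatin. Much of the genome between genes is made of long stretches without coding sequence, some of which hold enhancers that act on a gene far away. CTCF is a zinc-finger protein that binds a long motif and halts cohesin, the ring complex that extrudes loops of chromatin, and motifs that face each other often mark the ends of a loop.

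Sequences of some of the peaks are given first, all on the plus strand of mm9 and 187 bp long, the width of every Santa Cruz peak. Most were picked for features that few of the peaks carry. An exact match to the CTCF core consensus lay within 250 bp of the centre in 2.08% of the peaks. The RUNX word TGTGGTT was in 4.88%. The first set shows the 4 far Santa Cruz-only peaks in which an exact match to the CTCF core consensus lay closest to the peak centre, with the match in capitals. The nearest protein-coding starts were those of Mmd (65.9 kb away), Spata13 (109 kb), Ier5 (73.6 kb) and Trps1 (566 kb), in the order of the lines.
chr11:90044795-90044981: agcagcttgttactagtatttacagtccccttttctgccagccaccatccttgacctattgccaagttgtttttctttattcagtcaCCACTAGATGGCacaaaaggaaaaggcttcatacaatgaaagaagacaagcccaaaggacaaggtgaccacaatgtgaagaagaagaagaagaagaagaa
chr14:61144235-61144421: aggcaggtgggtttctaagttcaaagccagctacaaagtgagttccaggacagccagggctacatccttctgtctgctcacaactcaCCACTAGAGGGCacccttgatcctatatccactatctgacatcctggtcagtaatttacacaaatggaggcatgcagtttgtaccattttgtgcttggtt
chr1:156873032-156873218: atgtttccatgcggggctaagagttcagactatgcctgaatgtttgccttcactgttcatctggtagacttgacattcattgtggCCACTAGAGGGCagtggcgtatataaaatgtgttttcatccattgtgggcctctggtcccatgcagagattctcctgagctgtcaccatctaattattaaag
chr15:50093152-50093338: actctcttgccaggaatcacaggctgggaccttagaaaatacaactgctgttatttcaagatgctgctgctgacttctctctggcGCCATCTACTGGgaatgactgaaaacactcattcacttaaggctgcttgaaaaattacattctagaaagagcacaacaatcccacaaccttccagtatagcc
The match was on the plus strand in 3 of them and on the minus strand in the peak near Trps1. All of these matches were centred within 2 bp of the peak centre.

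The next peak was the farthest from a start among those whose sequence is shown, 1961 kb from the start of Pcdh9, a protocadherin. No CTCF core match lay within 250 bp of its centre, and its GC content was 39.0%.
chr14:92324667-92324853: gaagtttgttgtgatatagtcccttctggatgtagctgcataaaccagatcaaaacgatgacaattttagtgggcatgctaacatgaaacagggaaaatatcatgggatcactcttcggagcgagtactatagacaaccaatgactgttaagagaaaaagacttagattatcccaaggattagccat

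The last set holds groups of neighbouring peaks with copies of the RUNX word TGTGGTT or its reverse complement, shown in capitals. The word was in 10 groups of 3 or more peaks, so those shown are examples. They were picked after their values were seen. RUNX proteins are transcription factors needed throughout T-cell development. The first 3 peaks lay 56.7, 65.5 and 69.3 kb from the start of Rasgrp1, which encodes an activator of Ras in thymocytes, and the other 3 lay 75.6, 81.3 and 88.2 kb from the start of Bod1.
chr2:117225378-117225564: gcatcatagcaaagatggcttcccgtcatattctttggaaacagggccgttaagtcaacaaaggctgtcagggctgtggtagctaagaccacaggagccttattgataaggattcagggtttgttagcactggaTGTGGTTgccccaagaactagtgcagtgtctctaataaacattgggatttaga
chr2:117234153-117234339: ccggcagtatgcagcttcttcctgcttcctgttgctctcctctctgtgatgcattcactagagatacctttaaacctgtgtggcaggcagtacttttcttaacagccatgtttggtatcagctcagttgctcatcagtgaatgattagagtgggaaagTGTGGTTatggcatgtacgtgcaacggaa
chr2:117237937-117238123: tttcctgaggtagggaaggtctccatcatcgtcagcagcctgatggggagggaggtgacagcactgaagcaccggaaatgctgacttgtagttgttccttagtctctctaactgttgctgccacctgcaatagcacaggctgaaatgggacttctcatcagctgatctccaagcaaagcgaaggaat
chr11:31647410-31647596: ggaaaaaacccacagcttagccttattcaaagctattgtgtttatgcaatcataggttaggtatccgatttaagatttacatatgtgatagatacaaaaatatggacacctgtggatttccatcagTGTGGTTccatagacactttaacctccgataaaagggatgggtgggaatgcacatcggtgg
chr11:31653082-31653268: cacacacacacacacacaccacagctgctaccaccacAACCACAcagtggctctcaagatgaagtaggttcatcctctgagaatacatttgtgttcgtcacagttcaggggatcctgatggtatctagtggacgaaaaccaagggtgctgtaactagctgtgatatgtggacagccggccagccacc
chr11:31660022-31660208: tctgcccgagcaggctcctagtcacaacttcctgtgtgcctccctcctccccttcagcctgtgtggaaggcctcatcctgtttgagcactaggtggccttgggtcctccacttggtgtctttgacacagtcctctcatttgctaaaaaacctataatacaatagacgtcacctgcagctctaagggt
In each group 2 of the 3 peaks held the word. A match of letters describes the sequence and does not show that the factor was bound.

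Distances among the far Santa Cruz-only peaks varied widely. The distance from the nearest start ranged from just over 50 to 2174 kb, with a median of 139 kb and quartiles of 79.6 and 275 kb. Just inside the threshold lay chr10:28338051-28338237, near Themis, which encodes a signalling protein of thymocyte selection. Just outside lay chr2:118802091-118802277, 49.9 kb from Chst14, which held a CTCF core match 16 bp from its centre. In the band from 50 to 55 kb, 171 peaks had a match in 18.1% of cases (12.7 to 24.7), and in the band from 45 to 50 kb, 181 peaks had one in 19.9% (14.3 to 26.5), so no step was seen at the threshold.

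Peaks were sparser in the far sequence than closer to genes. There were 3.17 far Santa Cruz-only peaks per Mb of far sequence (3.06 to 3.29), against 7.14 per Mb for Santa Cruz-only peaks between genes within 50 kb of a start, 7.63 per Mb inside protein-coding genes and 41.2 per Mb within 1 kb of a start. The density was below that of the intergenic peaks within 50 kb on 20 of 20 chromosomes. Novus-only peaks numbered 292 in the same far sequence, or 0.292 per Mb. The Novus list was smaller throughout. Over all classes there were 2570 Novus-only peaks, or 1.01 per Mb, against 6.55 per Mb for Santa Cruz-only peaks.

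Among chromosomes the density was lowest on X, with 106 peaks and 1.34 per Mb (1.1 to 1.62). Chromosome 14 came next with 2.38 per Mb (1.97 to 2.85), and the intervals of these chromosomes did not overlap. The highest values were 4.69 per Mb on chromosome 17 (3.96 to 5.51), 4.50 on chromosome 9 (3.85 to 5.22) and 4.32 on chromosome 13 (3.75 to 4.94), whose intervals overlapped. Chromosome X was also lowest for the intergenic peaks within 50 kb of a start, with 2.24 per Mb against 5.30 to 11.4 on the others.

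**Figure D1:**
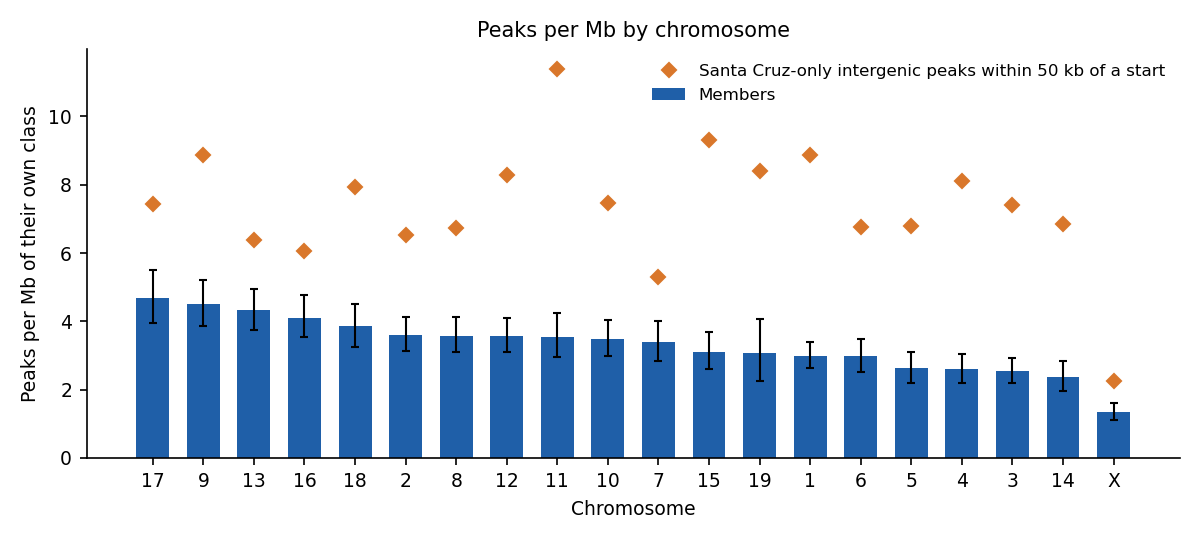
Peaks per Mb on each chromosome, in order of the density of far Santa Cruz-only peaks (bars, per Mb of far sequence, with exact 95% Poisson intervals), beside Santa Cruz-only intergenic peaks within 50 kb of a start (diamonds, per Mb of their own class of sequence). Bars fall from 4.69 on chromosome 17 to 1.34 on X, and every diamond lies above its bar.

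Density fell with distance inside the far sequence as well. It was 5.12 per Mb from 50 to 100 kb (4.83 to 5.43, 1137 peaks), 3.81 from 100 to 200 kb (3.57 to 4.07, 918 peaks), 2.5 from 200 to 500 kb (2.33 to 2.69, 779 peaks) and 1.51 beyond 500 kb (1.35 to 1.68, 343 peaks). None of these intervals overlapped. The median GC content of the peaks fell over the same bands, from 47.1% to 45.5%, 43.9% and 41.2%, and so did that of all 187 bp windows of the far sequence, from 41.7% to 40.6%, 39.0% and 37.4%. The part of base composition in the fall of density was not tested.

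CTCF core matches were fewer in far Santa Cruz-only peaks than in other Santa Cruz-only peaks between genes. A match with at most 1 mismatch lay within 250 bp of the centre in 297 of 3177 peaks (9.35%, 8.36 to 10.4), against 2.76% of all 1998307 windows of 501 bp in the far sequence. Of 3894 Santa Cruz-only intergenic peaks within 50 kb of a start, 844 had one (21.7%, 20.4 to 23.0). The difference was -12.3 percentage points (Newcombe 95% interval -14.0 to -10.7), and the far peaks had the lower share on 20 of 20 chromosomes. Windows of the sequence within 50 kb had a match in 5.05% of cases, so the background also differed.

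The share was lower than inside genes as well (14.7%, difference -5.31 points, -6.58 to -3.98). Against promoter peaks, with 9.93%, the difference was -0.586 points with an interval of -2.17 to 0.963, which included 0. Windows inside genes had a match in 4.52% of cases and windows at promoters in 5.66%. Both were above the 2.76% of far windows, so these backgrounds differed too. Within the far sequence, the 135 Santa Cruz peaks that overlapped a Novus peak had a match in 32.6% of cases, a difference of -23.2 points (-31.6 to -15.8). The 292 Novus-only far peaks had one in 16.8% (difference -7.43 points, -12.2 to -3.44). The rule used no sequence, but it used distance and overlap with Novus, and the share with a match differed with both.

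**Figure D2:**
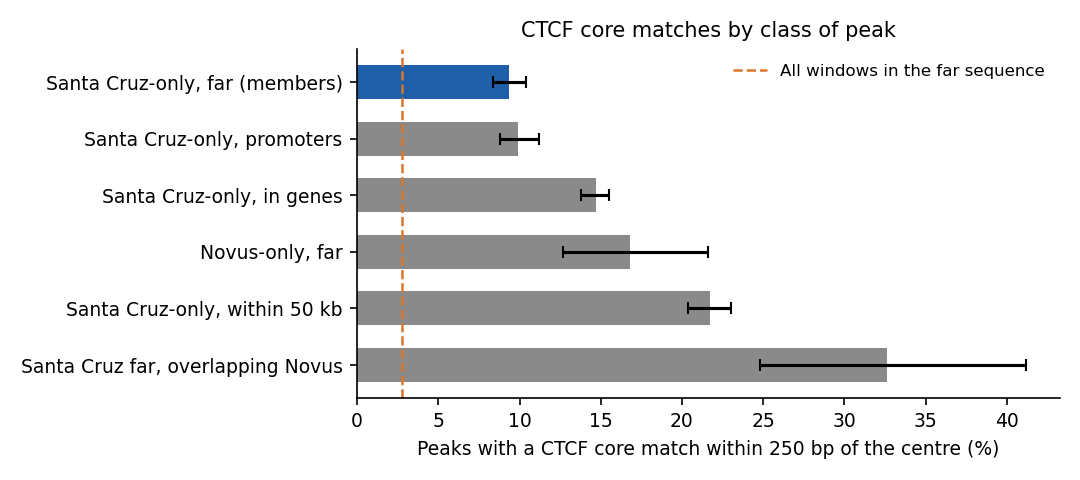
Share of peaks with a CTCF core match within 250 bp of the centre, by class of peak, with exact 95% intervals, and the share of all 501 bp windows of the far sequence (dashed line, 2.76%). The far Santa Cruz-only peaks (9.35%) and promoter peaks (9.93%) are lowest, and far Santa Cruz peaks that overlap Novus (32.6%) are highest. Windows of the other classes, not drawn, had higher shares than the dashed line: 4.52% in genes, 5.05% within 50 kb and 5.66% at promoters.

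Exact matches, with no mismatch, were found in 66 far Santa Cruz-only peaks (2.08%, 1.61 to 2.64), in 6.96% of the intergenic peaks within 50 kb and in 0.137% of the far windows. In the called 187 bp alone, 4.63% of the far peaks and 12.3% of those within 50 kb had a match, against 1.00% of far windows. The far peaks were below those within 50 kb each time. Against promoter peaks, of which 1.36% had an exact match, the far peaks were higher by 0.717 points (0.0169 to 1.40). Windows at promoters had an exact match in 0.407% of cases, above the far windows.

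GC content differed between these classes, with medians of 45.5% in the far peaks (quartiles 40.6 and 49.7) and 47.6% in those within 50 kb. The 100 kb around the peaks had medians of 42.1% and 45.2%, where the far sequence as a whole had 39.9%. The CTCF difference was therefore also taken within bands of GC over 501 bp. Below 40% GC, 4.91% of 672 far peaks and 15.3% of 340 peaks within 50 kb had a match. From 45 to 50% GC the shares were 11.4% of 976 and 20.9% of 1467. In the 5 bands the difference lay between -9.49 and -16.5 points, and each interval lay below 0. The windows differed within the bands too. Below 40% GC, 1.96% of far windows and 3.27% of windows within 50 kb had a match. From 45 to 50% GC these shares were 4.31% and 6.12%, and from 55% GC 6.11% and 9.28%. The bands therefore did not even out the background.

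The share with a match also fell with distance. It was 13.3% from 50 to 100 kb (11.4 to 15.4), 8.82% from 100 to 200 kb (7.07 to 10.8), 6.29% from 200 to 500 kb (4.69 to 8.23) and 4.66% beyond 500 kb (2.69 to 7.46). The first and the last band differed by 8.62 points (5.28 to 11.4). Far windows fell over the same bands from 3.68% to 3.04%, 2.48% and 1.96%. The ratio of peaks to windows went from 3.61 to 2.91, 2.54 and 2.38. No interval of this ratio was computed, and the last band rested on 16 peaks with a match.

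**Figure D3:**
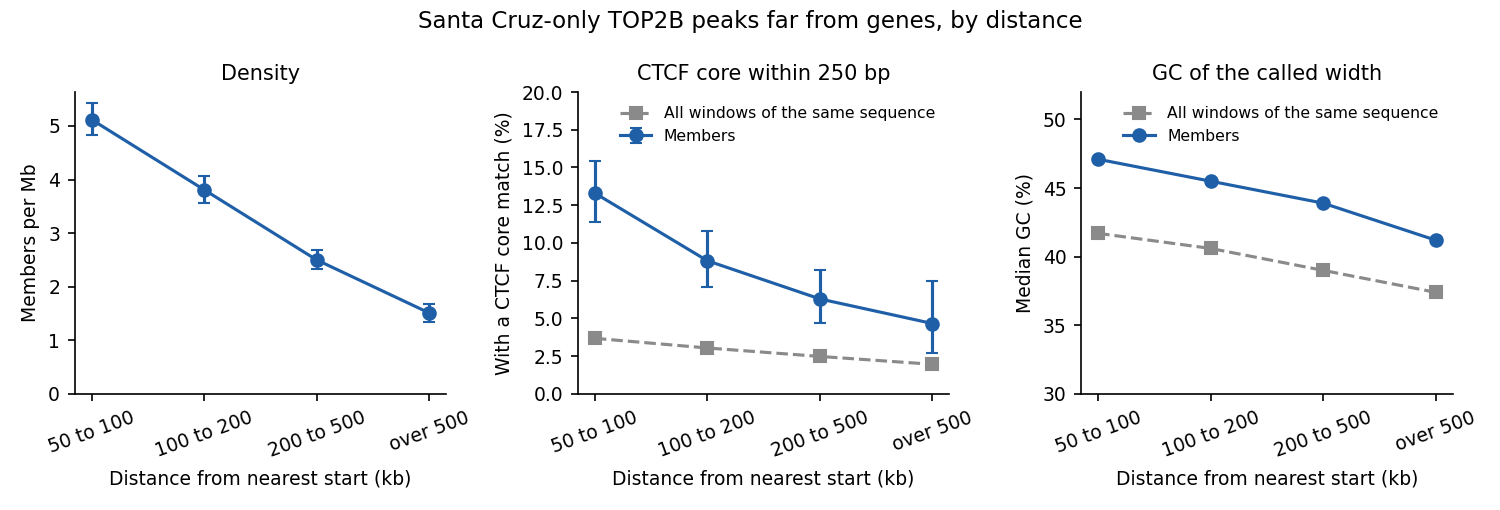
Density per Mb, share with a CTCF core match and median GC content of the far Santa Cruz-only peaks (circles, with exact 95% intervals for density and share) in 4 bands of distance from the nearest start, with all windows of the far sequence beside them (squares). All 3 measures of the peaks fall from the first to the last band, density from 5.12 to 1.51 per Mb and the CTCF share from 13.3% to 4.66%.

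The matches were nearer to the peak centre than an even spread would place them. The closest match lay within 50 bp of the centre in 97 of the 297 peaks (32.7%, 27.4 to 38.3), where 20.6% of the possible positions lie. Its median distance was 90 bp, against 74 bp for the 844 intergenic peaks within 50 kb, of which 35.7% were within 50 bp, and 57 bp for the 44 far peaks with a match that overlapped Novus. On the plus strand lay 148 of the 297. Among 29 pairs of neighbouring matches less than 200 kb apart, 7 faced each other, 4 faced apart and 18 pointed the same way.

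Other words were counted in the called 187 bp on both strands, and none of them contains another. The E-box CAGCTG, which reads alike on both strands and is bound by basic helix-loop-helix proteins, was in 310 far Santa Cruz-only peaks (9.76%, 8.75 to 10.8), against 5.63% of far windows and 11.4% of the intergenic peaks within 50 kb. The SP/KLF word GGGCGGG was in 1.54% (1.14 to 2.03) against 0.545% of far windows, and in 20.5% of Santa Cruz-only promoter peaks. The ETS word CCGGAAGT was in 8 peaks (0.252%, 0.109 to 0.496), against 0.0727% of far windows and 2.23% of promoter peaks. These words of high GC content were more frequent in the peaks than in the far windows, whose median GC was 39.6%.

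The remaining words differed less from the windows. The RUNX word was in 4.88% of the far peaks (4.16 to 5.69), just above the 4.10% of far windows, and the AP-1 word TGACTCA in 3.24% (2.65 to 3.92) and 2.72%. The GATA word AGATAAG was in 2.68% (2.14 to 3.30) and 2.91%. The TCF1/LEF1 word CTTTGAT was in 3.21% (2.63 to 3.88), below the 4.29% of far windows. Runs of at least 20 bp of a repeated dinucleotide were in 2.64% (2.11 to 3.26) and 2.77%. In the intergenic peaks within 50 kb, the shares with the RUNX word (5.19%), the TCF1/LEF1 word (3.03%) and a dinucleotide run (2.67%) lay within the intervals of the far peaks, that of the GATA word (2.05%) lay just below and that of the AP-1 word (4.06%) just above. The interval of the AP-1 difference, -0.815 points, included 0 (-1.69 to 0.0714).

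Repeated sequence was rare in the peaks. Words of 24 bp that occur 10 times or more in mm9 began at over 50% of the possible start positions in 33 of 3177 peaks (1.04%, 0.716 to 1.46). This held for 16.7% of far windows and 0.822% of the intergenic peaks within 50 kb. Reads from such sequence may not align to a single place, and the part of alignment in this share was not tested. In 17 peaks, 50 bp or more was shared with another far Santa Cruz-only peak, and 24 peaks lay within 50 kb of an assembly gap.

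The far sequence excluded protein-coding genes only, and 152 of the peaks (4.78%, 4.07 to 5.59) were centred in a non-coding gene or pseudogene, which cover 3.26% of it. Long intergenic non-coding RNA genes (lincRNA) held 86 of them, other processed transcripts 60, pseudogenes 4 and V segments 2. Of the 103 such genes, 2610307P16Rik held the most, 13 peaks over chr13:28551903-28977489, next to Sox4. Gm14005, next to Bcl2l11, held 8. Ttc28, A430010J10Rik and Pvt1, the last next to Myc, held 5 each, and each is typed as lincRNA in the annotation used. The gene types, that of Ttc28 included, were taken from this annotation and not checked against another. Starts of non-coding transcripts lay within 1 kb of 55 peaks (1.73%), against 0.843% of the windows. When genes of every type were taken into account, 2151 of the peaks (67.7%) remained over 50 kb from any start and outside any gene. The annotation gives 481 immunoglobulin and T-cell receptor segments a type of their own, which was not counted as protein-coding, although a few segments such as Igkv1-115 are typed as protein-coding in it. Of the peaks, 18 lay within 20 kb of one of the 481, 10 of them on chromosome 12, 4 on chromosome 6, 3 on chromosome 14 and 1 on chromosome 13.

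Few of the peaks had a Novus peak near by. Overlap with Novus was used by the rule, so these distances are a description. The median distance between centres was 314 kb, and 46 peaks (1.45%) had a Novus centre within 1 kb, 135 (4.25%) within 10 kb and 449 (14.1%) within 50 kb. For the intergenic peaks within 50 kb of a start the median was 114 kb, and 8.76% had one within 10 kb. Between the edges, 22 of the far peaks were less than 100 bp from a Novus peak and 49 less than 1 kb. The nearest, chr13:28785210-28785396 in the Sox4 desert, abutted a Novus peak without sharing a base. On the other side of the rule, chr9:50246220-50246406 shared 8 bp with one and was left out. Of all 3312 far Santa Cruz peaks 4.08% (3.43 to 4.81) overlapped Novus, against 6.64% within 50 kb, 4.30% in genes and 9.85% at promoters.

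Gaps to the nearest other Santa Cruz peak were also wider than for the intergenic peaks within 50 kb. Density was lower in the far sequence (3.17 against 7.14 per Mb), and its part in these gaps was not tested. Another Santa Cruz peak of any class lay within 10 kb of 510 of them (16.1%), and the median distance was 58.5 kb, against 27.0% and 23.1 kb for the intergenic peaks within 50 kb. Taken alone, 2711 had no other far Santa Cruz-only peak within 10 kb. There were 187 pairs, and 28 groups of 3 or more held 92 peaks, at most 5 in a group.

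The RUNX word was more frequent in groups of peaks. It was in 15 of the 92 peaks in groups of 3 or more (16.3%, 9.42 to 25.5), in 4.28% of paired and 4.57% of single peaks, a difference between groups and single peaks of 11.7 points (5.50 to 20.6). With groups joined at under 20 kb the difference was 4.91 points (1.59 to 9.60). The 15 peaks belonged to 10 of the 28 groups. The E-box was also in 15 of these 92 peaks (16.3%, 9.42 to 25.5), against 9.89% of paired and 9.52% of single peaks. An interval of that difference was not computed. The CTCF shares were 14.1% in groups, 14.4% in pairs and 8.48% in single peaks, and the difference between groups and single peaks, 5.65 points, had an interval that included 0 (-0.143 to 14.3). No peak in these groups held the TCF1/LEF1 word (0 of 92, exact interval up to 3.93%), against 3.28% of single peaks. This comparison was made after the values were seen, over the CTCF core and 6 words, and peaks of a group share their surroundings. Median GC content rose with group size from 44.9% to 46.5% and 48.1%.

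Some genes had many of the peaks beside them. The peaks had 1753 different protein-coding genes as their nearest, out of 5645 genes nearest to any far sequence, and 1004 of these were nearest to exactly 1 peak. At the other end, 70 genes were nearest to at least 5. Of 2190 genes with at least 0.1 Mb of far sequence, 1195 (54.6%) had a peak, and the density over these genes had a median of 1.31 per Mb and a 90th percentile of 9.78 per Mb.

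The 10 genes with the most peaks included regulators of lymphocytes. First was 3110018I06Rik, a short gene inside the desert of Bcl11b, with 22 peaks (24.5 per Mb, 15.4 to 37.2). Satb1, a chromatin organiser of thymocytes, had 18 (28.7 per Mb, 17 to 45.3), and Sox4, a transcription factor of lymphoid progenitors, had 13 (24 per Mb, 12.8 to 41.0). Fam86 had 12 and Zfp608 had 11. Zeb2, a zinc-finger repressor, Tbl1xr1, a subunit of a co-repressor complex, and Btg1, which restrains proliferation, had 9 each. Dusp10, a phosphatase of stress-activated kinases, and Gm10655 had 8 each, as did Myc, Runx1 and Sall3, which came after them in genome order.

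Lists of genes showed unequal densities. In 24 T-lineage regulators found in the annotation, 18 had far sequence nearest to them and 15 had a peak, 85 peaks in all, or 12.1 per Mb (9.67 to 15) against 3.17 over the whole far sequence. Among them Satb1, Sox4, Myc (5.97 per Mb, 2.58 to 11.8) and Runx1 (23.3 per Mb, 10.1 to 45.9) had the most. Lef1, Tox and Ets1 had 6 each, and Bcl11b and Id2 had 5 each. Gata3 had 4 in 1.35 Mb (2.97 per Mb, 0.808 to 7.59), Bach2 had 2, and Runx3, Myb, Hes1 and Zeb1 had 1 each. Foxo1, Tcf12 and Erg had no peak, in 0.122, 0.0104 and 0.0218 Mb of far sequence. Their upper limits were 30.2, 354 and 169 per Mb. Of 23 genes on the T-cell receptor, signalling, homing and survival list, 22 were in the annotation. Only 8 had far sequence nearest to them, 1.05 Mb in all, so the rest of the list could not contribute. There were 18 peaks at 7 of these 8 genes, or 17.2 per Mb (10.2 to 27.2). Bcl2l11, which encodes a trigger of thymocyte death, had 6 (32.9 per Mb), Cxcr4, a chemokine receptor, had 4 (12.2 per Mb), S1pr1, the receptor for exit from the thymus, had 3 (9.92 per Mb), and Bcl2, a survival protein, had 2, with 1 each at Cd28, Cd44 and Themis.

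The lists of other cell types lay on either side of the whole far sequence. The list of other blood and thymus cell types had 11 peaks, 9 at Zeb2 and 2 at Cebpb, over 6 genes with far sequence (5.14 per Mb, 2.57 to 9.19), an interval that holds the 3.17 per Mb of the whole. Pax5, Ebf1, Gata2 and Irf4 had none. Neuronal adhesion genes, which lie beside some of the longest deserts of the genome, had 33 peaks over 32.9 Mb at 16 of 25 genes (1.00 per Mb, 0.690 to 1.41), below the whole. The most was 4, at Cdh9 and at Robo1, and Pcdh10 had none in 2.25 Mb.

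**Figure D4:**
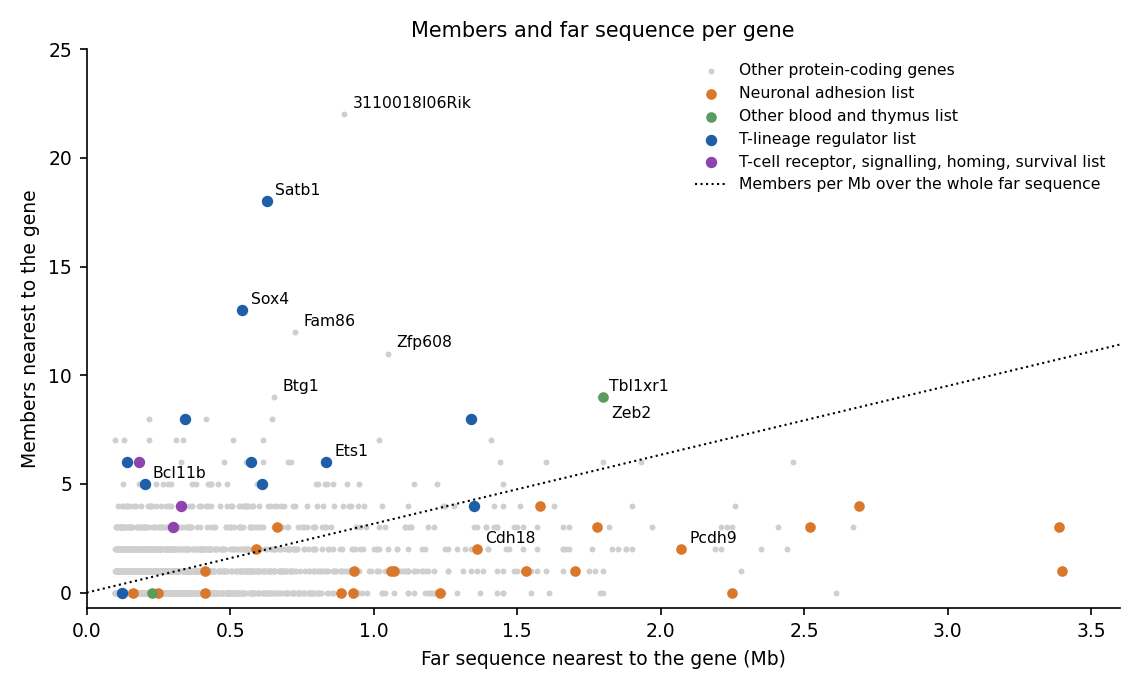
Number of far Santa Cruz-only peaks nearest to each protein-coding gene against the far sequence nearest to it (Mb), for genes with at least 0.1 Mb, with genes of the 4 lists in colour. The dotted line is the density over the whole far sequence (3.17 per Mb), which most T-lineage genes lie above and most neuronal adhesion genes lie below.

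The lists differed in how deep their far sequence lay and in its GC content, so each band of distance was also taken alone. From 50 to 200 kb the T-lineage list had 19.6 peaks per Mb (14.3 to 26.1), the T-cell list 21.9 (12.2 to 36.0), the other blood and thymus list 11.5 on 3 peaks (2.36 to 33.5), the neuronal list 1.58 (0.581 to 3.45) and the whole far sequence 4.44. The interval of the other blood and thymus list overlapped those of both T-cell lists. Beyond 200 kb the T-lineage list had 8.35 (5.94 to 11.4), the T-cell list 8.33 on 3 peaks (1.72 to 24.4), the other blood and thymus list 4.26 (1.84 to 8.39), the neuronal list 0.927 (0.611 to 1.35) and the whole 2.08. The windows near these genes had median GC of 41.7% for the T-lineage list, 43.3% for the T-cell list and 36.4% for the neuronal list. CTCF core matches were in 7 of the 85 T-lineage peaks (8.24%) and 2 of the 33 neuronal peaks (6.06%), beside 9.35% of all the far peaks. The lists were chosen with results of these data known, so these densities are descriptions.

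The bins of 1 Mb with the most peaks lay beside the genes with the most peaks. Of 879 bins with at least 0.5 Mb of far sequence, 233 (26.5%) had none of the peaks and 7 had 10 or more, with a mean of 1.85 and a variance of 4.67. By number of peaks, chromosome 12 from 108000001 to 109000000 held 23 peaks, between Vrk1 and Bcl11b, at 25.6 per Mb and with a median gap of 27.9 kb. No Novus peak was called in it. Chromosome 17 from 52000001 to 53000000 also held 23, between Satb1 and Kcnh8, at 29 per Mb with 7 Novus peaks. Chromosome 13 from 28000001 to 29000000 held 16, between Prl5a1 and Sox4, with a median gap of 6.99 kb. CTCF core matches were in 1, 0 and 0 of these peaks. Bins with less far sequence had higher densities, such as 9 peaks at 61.3 per Mb on chromosome 17 from 80000001 to 81000000, between Cyp1b1 and Hnrpll.

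Around Bcl11b, which encodes a factor needed for commitment to the T lineage, the peaks lay on one side. Within 1500 kb of its start there were 31, all downstream, from 132 to 1380 kb. The 18 Santa Cruz peaks upstream were all of other classes, and the 4 Novus peaks were upstream too. Around Satb1, 24 of 26 lay upstream, between 65.7 and 1250 kb from the start. Around Sox4, 16 of 20 lay downstream, between 70.1 and 536 kb, over the non-coding gene 2610307P16Rik and past its end. Protein-coding genes stood along much of the upstream side of Bcl11b. Satb1 and Sox4 had far sequence on both sides, but Cdkal1 covered -902 to -238 kb from the start of Sox4. Santa Cruz peaks of other classes numbered 13 upstream and 3 downstream at Sox4, and 5 and 13 at Satb1. The rule leaves out peaks inside protein-coding genes, so these sides are a description, and the part of the rule in them was not tested.

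**Figure D5:**
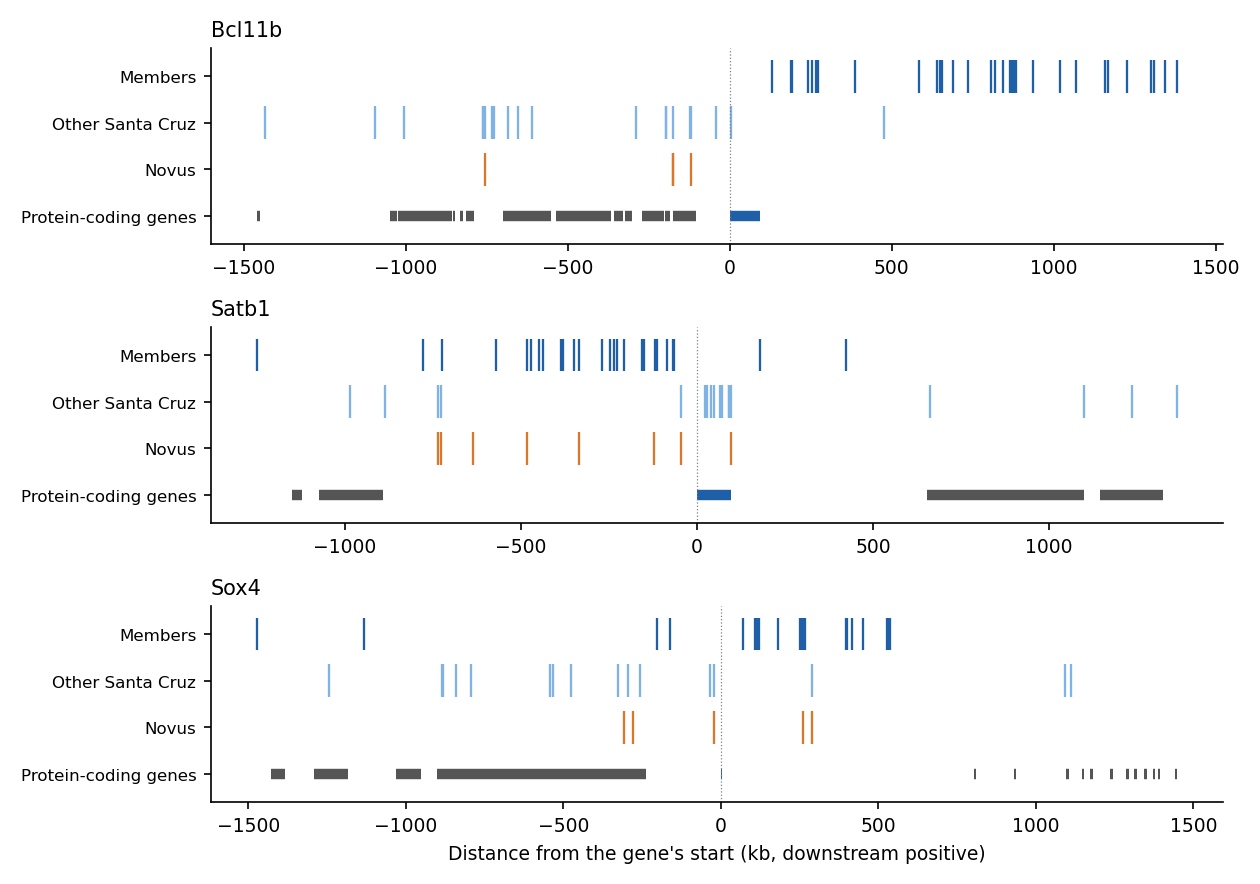
Peaks within 1500 kb of the starts of Bcl11b, Satb1 and Sox4 by distance from the start (kb, downstream positive), with the far Santa Cruz-only peaks in the top row, then all other Santa Cruz peaks, Novus peaks and protein-coding genes (bars, the named gene in blue). The 31 peaks at Bcl11b are all downstream, 24 of 26 at Satb1 are upstream and 16 of 20 at Sox4 are downstream. Peaks inside protein-coding genes are left out of the top row by the rule.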

How the data were processed

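Thymocyte ChIPseq libraries came from ChIPmentation, where a transposase adds adaptors to chromatin on the beads. Reads were aligned to mm9 with Bowtie 1.2.0 and peaks were called with HOMER for each library alone, against IgG, with thresholds of 10-fold and an FDR of 1%. The deposited lists give positions, with 1 width per list (Santa Cruz 187 bp, Novus 195 bp), and the score that the authors deposited is 0 for every peak. Peaks could therefore not be ranked. Depth per library was not given in the lists.

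Positions were compared with the mm9 sequence and GENCODE M1 starts of protein-coding transcripts. Overlap meant at least 1 bp. Each group is 1 antibody, with 1 library. The CTCF core consensus (12 letters, at most 1 mismatch, both strands) was searched wholly within 250 bp of the centre, and shorter words in the called peak. Windows of the same length, laid end to end over every base of the class that is not N, gave the background. Shares have exact Clopper-Pearson, densities exact Poisson and differences Newcombe 95% intervals, for counting error only, and no p-value was computed. The mm9 sequence used does not mark repeats, so words of 24 bp that occur at least 10 times served instead.

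Genes named are the 10 nearest to the most peaks, all genes of the T-lineage and T-cell lists with a peak, and those of the 3 bins of 1 Mb with the most peaks. Some listed genes without a peak are named too. The peaks, lists and rules were chosen with earlier results of these data known. Alternatives covered overlap, distance, mismatches, window, grouping, chromosomes and gene types. The search, overlap and interval code was tested on simulated data. Python 3.11.15, numpy 2.4.6, scipy 1.17.1, matplotlib 3.10.9 and samtools 1.23.1 were used.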

Additional observations from a re-analysis of the deposited data

How the results depend on the processing

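Of 52 alternative values, 31 stayed within 1.5 times the reported count, within the interval of the reported value or on the same side of 0, and 21 moved. The difference in CTCF share between far peaks and intergenic peaks within 50 kb kept its direction, with an interval below 0, in all 12 alternatives run, between -4.88 (exact matches) and -16.5 points (highest GC band).

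The number of peaks was set by the distance. It was 2040 beyond 100 kb and 1122 beyond 200 kb, and the share of Santa Cruz-only peaks was 26.1% at 25 kb, 12.2% at 100 kb and 6.70% at 200 kb, and 12.8% with genes of every type. Density was 3.33 per Mb without chromosome X, the highest value on leaving out any chromosome (lowest 3.11). It was 3.88 per Mb of bases at which no repeated word begins. The CTCF share was 2.08% with exact matches, 4.63% in the called peak and 7.16% beyond 100 kb. Over 501 bp the median GC content was 44.5%, and the share with repeated words at over 50% of start positions was 0.283%. A Novus centre lay within 1 kb of 1.45% and within 50 kb of 14.1%, and another Santa Cruz centre within 5 kb of 8.31% and within 50 kb of 45.7%. Counting either flanking gene instead of the nearest, the share of peaks at the T-lineage list was 4.38%, at the other blood and thymus list 0.755% and at the neuronal list 2.36%. The difference in the RUNX word between groups and single peaks was 11.9 points with groups of under 5 kb (0.997 to 34.4) and fell to 4.91 points with groups of under 20 kb (1.59 to 9.60). GC bands, repeated words and these gaps were chosen after seeing the data.

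No paired analysis was possible because each antibody had 1 library, and leaving out a replicate was not run for the same reason. A stricter peak list and the repeat measures by lower case were not run, since scores are 0 and repeats are unmarked.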
